A study of Mus musculus with 8 samples.

Results

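The 48 genes described here encode proteins of mitosis and chromosome segregation, from the kinases and cyclins that start mitosis to the proteins that split the cell at its end. They were chosen by name, and all 48 were found among the 13388 gene identifiers of the deposited expression table. RNA had been sequenced in 8 libraries of sorted bone marrow cells from wild-type mice, after 6 h of coculture with a stromal cell line, with 2 libraries in each of 4 groups. The groups were common monocyte progenitors (cMoPs) on OP9-DLL1 cells, cMoPs on OP9 cells, Ly6C+ classical monocytes on OP9-DLL1 cells, and Ly6C+ classical monocytes on OP9 cells. OP9 is a mouse bone marrow stromal line, and OP9-DLL1 is that line made to display DLL1, a ligand of Notch receptors. All 4 groups share the wild-type genotype and the OP9 background, and no library of cells without stroma was analysed here. The comparisons ask how the mitotic programme differed between the progenitor and the monocyte, and whether it responded to the Notch ligand. The labels do not say whether the 2 libraries of a group came from separate mice or cultures, so p-values measure the spread between these libraries, which may be technical.

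In a dividing cell, cyclin B with the kinase Cdk1 starts mitosis, condensin packs the chromosomes, and motor proteins and microtubule binders build the spindle. Kinetochores tie each chromosome to spindle microtubules, and the spindle checkpoint holds the anaphase-promoting complex in check until all are attached. That complex, a ubiquitin ligase, then marks securin and cyclin B for destruction, the sister chromatids separate, and a contractile ring divides the cell. Most of these genes are transcribed late in the cell cycle, under the control of MuvB complexes with B-Myb and Foxm1, and are shut off in resting cells by the related DREAM complex. In the bone marrow, cMoPs are cycling precursors and monocytes are their largely non-dividing products.

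MuvB complexes contact a short promoter element called the cell cycle genes homology region (CHR), often placed near CCAAT boxes that bind NF-Y, so the proximal promoters of the members were searched for both. Windows of 250 bases before to 50 bases after the transcription start were available in the RefSeq table of assembly GRCm38.p6 for 40 of the 48 genes. The exceptions were Foxm1, Kif20a, Tpx2, Aurkb, Incenp, Ccna2, Spc24 and Smc4. A CHR was read as the run TTTGAA, which appears as TTCAAA where it lies on the other strand, or as its variant form, the run TTCGAA, which reads alike on both strands. The second motif was searched as CCAAT, which appears as ATTGG where it lies on the other strand. The only shared base between a CHR and a CCAAT match was 1 base in Cdca8. A CHR was present in 32 of 40 members (80.0%), against 21.7% of all 27025 genes in the table. CCAAT matches occurred in 29 of 40 members (72.5%), against 41.1% of all genes, and both motifs in 27 of 40 (67.5%), against 8.61%. The 5 promoters printed next are those of members on which the results turn, read 5′ to 3′ along the gene, with motif matches in capitals. The first 3 carry both motifs, and the last 2 carry neither. Cdk1 (chr10:69352863-69353162, minus strand) was among the members most raised in cMoPs, Cenpf (chr1:189688037-189688336, minus strand) the one that was lower there, and Ccnb2 (chr9:70421505-70421804, minus strand) the one with the lowest p for OP9-DLL1 in cMoPs. Pttg1 (chr11:43425932-43426231, minus strand) went against all other members in 1 library, and Mad2l1 (chr6:66534971-66535270, plus strand) differed most between the cell types.
Cdk1: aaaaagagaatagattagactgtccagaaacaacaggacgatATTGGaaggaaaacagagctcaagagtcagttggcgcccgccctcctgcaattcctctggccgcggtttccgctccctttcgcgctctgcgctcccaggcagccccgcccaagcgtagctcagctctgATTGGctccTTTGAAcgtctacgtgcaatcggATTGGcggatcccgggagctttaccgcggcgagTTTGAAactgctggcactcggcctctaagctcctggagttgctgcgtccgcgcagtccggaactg
Cenpf: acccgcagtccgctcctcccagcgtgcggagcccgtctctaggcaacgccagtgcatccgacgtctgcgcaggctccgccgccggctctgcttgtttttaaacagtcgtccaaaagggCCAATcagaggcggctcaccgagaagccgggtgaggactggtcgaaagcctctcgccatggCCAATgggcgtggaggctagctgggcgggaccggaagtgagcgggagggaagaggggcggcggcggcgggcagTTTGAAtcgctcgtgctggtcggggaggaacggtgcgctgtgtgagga
Ccnb2: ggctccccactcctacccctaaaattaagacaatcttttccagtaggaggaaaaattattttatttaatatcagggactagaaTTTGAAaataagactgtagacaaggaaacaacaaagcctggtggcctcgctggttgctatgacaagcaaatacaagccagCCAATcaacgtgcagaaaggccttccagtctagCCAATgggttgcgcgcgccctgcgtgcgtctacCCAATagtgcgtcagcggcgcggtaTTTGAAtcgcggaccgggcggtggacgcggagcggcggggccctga
Pttg1: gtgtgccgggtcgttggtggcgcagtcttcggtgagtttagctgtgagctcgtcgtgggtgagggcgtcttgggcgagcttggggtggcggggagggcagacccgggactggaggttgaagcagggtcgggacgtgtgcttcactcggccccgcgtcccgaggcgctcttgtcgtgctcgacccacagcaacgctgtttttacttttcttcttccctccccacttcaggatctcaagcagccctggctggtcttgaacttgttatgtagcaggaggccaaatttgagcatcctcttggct
Mad2l1: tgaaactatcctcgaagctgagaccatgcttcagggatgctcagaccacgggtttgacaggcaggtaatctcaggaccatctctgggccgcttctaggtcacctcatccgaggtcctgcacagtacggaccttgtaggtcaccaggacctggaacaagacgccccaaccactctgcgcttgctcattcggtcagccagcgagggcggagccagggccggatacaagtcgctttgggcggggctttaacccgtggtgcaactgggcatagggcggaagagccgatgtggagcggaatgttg
These matches are letters in a window, not binding sites, and the 2 printed windows without a motif do not hold the gene start of the GENCODE annotation. The RefSeq start lies 169 bases upstream of it for Mad2l1 and 270 bases downstream of it for Pttg1. The Mad2l1 window thus ends before the GENCODE start, and the Pttg1 window lies wholly inside the gene. Of the other windows searched, those of Cdca3, Cdca8, Kif2c and Kif4 did not hold the GENCODE start either. Cdk1, with 2 CHRs and 3 CCAAT boxes, and Cenpf, with 1 CHR and 2 CCAAT boxes, moved in opposite directions between the cell types. The median log2 fold change of cMoPs over monocytes on OP9-DLL1 was 0.51 in the 32 members with a CHR and 0.49 in the 8 without one. On OP9 these medians were 0.75 and 0.62. The 8 include Mad2l1 and Pttg1, and the 32 include Cdca3, Cdca8, Kif2c and Kif4, whose windows did not hold the GENCODE start.

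The deposited values are log2 CPM, reads of a gene scaled to a common library size and given on the log2 scale. Recovered read totals ran from 47316323 to 62459962 per library, and a member had between 54 reads (Kif18b in monocytes on OP9, replicate 1) and 28544 reads (Top2a in cMoPs on OP9, replicate 1). Of 11 progenitor markers with values, 9 were higher and 1 lower in cMoPs on each stroma (limma-trend), and of 10 monocyte markers 8 were lower and 2 higher. By the same test 28.2% of all genes were higher and 29.2% lower on OP9-DLL1, and 28.8% and 27.7% on OP9. Mpo, a granule enzyme of myeloid progenitors, lay at 3591 to 5277 CPM in cMoP libraries and at 4.56 to 20.3 CPM in monocyte libraries, and Ccr2, a chemokine receptor of classical monocytes, at 226 to 482 CPM in cMoPs and 1415 to 1927 CPM in monocytes. Among the 2 higher monocyte markers was Ly6c2, which encodes a Ly6C antigen, at 2065 to 2314 CPM in cMoPs and 872 to 1204 CPM in monocytes. Of 20 stromal markers listed for OP9 cells, 8 had values, summing to 1.87 to 5.04 CPM in cMoPs and 5.50 to 40.2 CPM in monocytes. In bulk RNA, fewer cells in mitosis and less RNA of these genes per cell cannot be told apart. Libraries were made without marking strand, and 8 members share exon bases with a gene on the opposite strand (Ccna2, Cdc20, Cdca8, Ncapg, Kif4, Nusap1, Kif20a and Prc1), so their values are uncertain to that extent.

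The 2 libraries of monocytes on OP9 stood far apart in these genes, which bears on every comparison that uses them. Of the 48 members, 47 were lower in replicate 1 than in replicate 2, with a median difference of -1.16 on the log2 scale, and 33 were more than 2-fold apart. Over all 13374 genes tested, 49.9% were lower in replicate 1 and 10.8% were more than 2-fold apart. None of the 48 was more than 2-fold apart between the replicates of cMoPs on OP9-DLL1, cMoPs on OP9 or monocytes on OP9-DLL1, where the medians were 0.14, -0.09 and -0.07 (backgrounds of 6.01%, 5.41% and 5.62% more than 2-fold apart). Replicate 1 held the lowest value of all 8 libraries for 46 members, while replicate 2 was the highest of the 4 monocyte libraries for 35. Summed over the members, monocytes on OP9 had 2458 CPM in replicate 1 and 5231 CPM in replicate 2, with the monocytes on OP9-DLL1 between them at 4231 and 4565 CPM. All 4 cMoP libraries were above these sums, at 6454 and 5972 CPM on OP9-DLL1 and 5653 and 6016 CPM on OP9. The medians over members overlapped. In log2 CPM, monocytes on OP9 replicate 2 had 6.31, above cMoPs on OP9-DLL1 replicate 2 (6.25) and cMoPs on OP9 replicate 1 (6.27). That monocyte library was the highest of all 8 for 12 members.

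**Figure D1:**
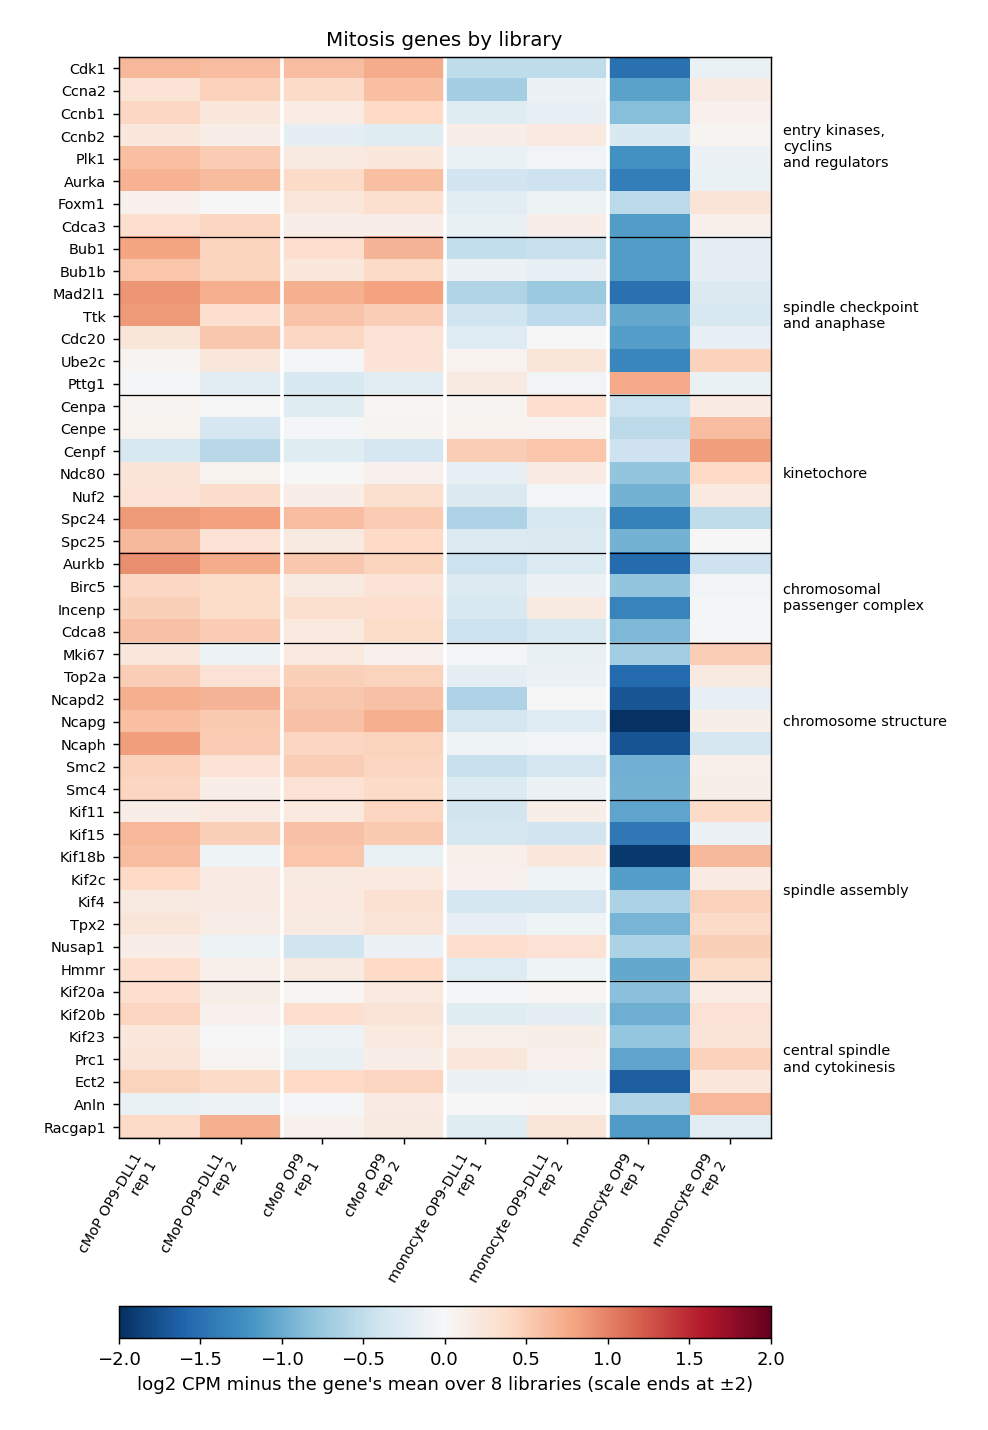
Level of each of the 48 genes (rows, ordered by role) in each of the 8 libraries (columns), as log2 CPM minus the gene's mean over the libraries, with red above and blue below that mean. Monocytes on OP9 replicate 1 held the lowest value for 46 of the 48 genes, and Pttg1 was high there.

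The gap covered every role. Its median was -1.39 in the 7 chromosome structure genes and -1.31 in the 8 spindle assembly genes, and it was smallest, at -0.92, in the 7 checkpoint and anaphase genes. Kif18b, a kinesin that shortens astral microtubules, had 1.26 CPM in replicate 1 and 7.50 CPM in replicate 2. Ncapg, a condensin subunit, had 13.8 and 58.6 CPM, and Top2a, the topoisomerase that untangles chromatids, 106 and 351 CPM. Pttg1, or securin, the protein that keeps separase inactive until anaphase, was the single member higher in replicate 1, with 85.9 CPM there and 46.5 CPM in replicate 2. Its values in the other 6 libraries lay between 41.3 and 57.7 CPM.

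Other gene lists of the cell cycle placed the gap in context. Another 65 mitotic genes had a median difference of -1.08 between replicate 1 and replicate 2, with 63 lower, and 39 DNA replication genes had -0.60, with 35 lower. The 16 subunits of the anaphase-promoting complex, which cells keep through the cycle, had a median of 0.04, and 12 cohesin genes -0.29. The 11 progenitor markers with values were lower as well, with a median of -0.96 and 10 of 11 lower, Mpo having 4.56 CPM in replicate 1 and 20.3 CPM in replicate 2. Their summed level was 903 CPM in replicate 1 and 893 CPM in replicate 2. The 10 monocyte markers differed by a median of -0.11, and the stromal sum was 40.2 CPM in replicate 1 and 35.2 CPM in replicate 2. The part of progenitor RNA in the difference was not tested.

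**Figure D2:**
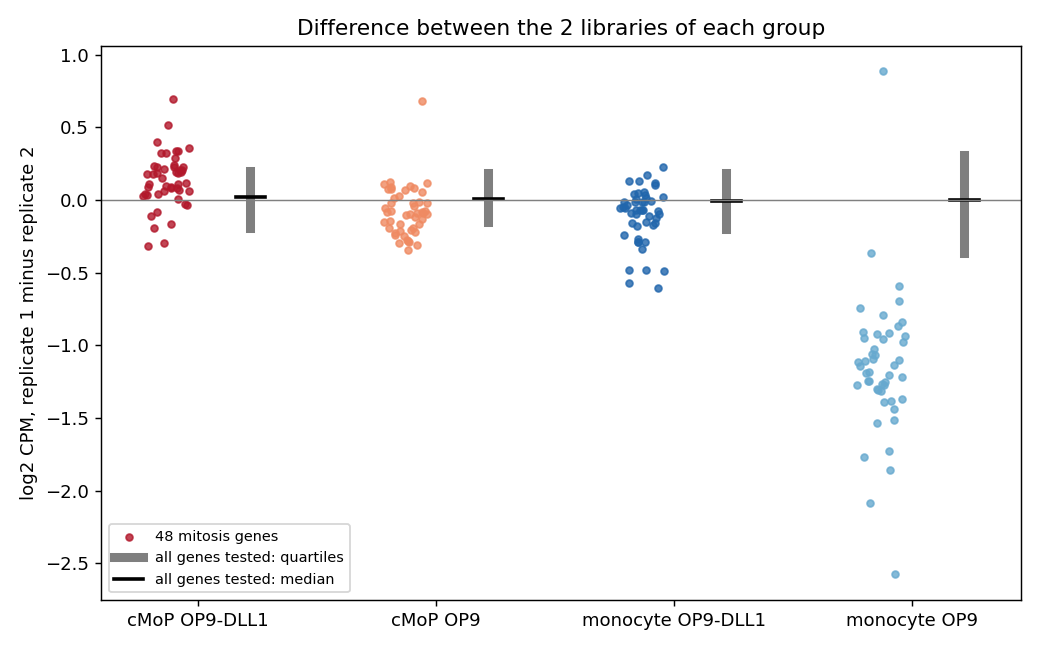
Difference in log2 CPM between replicate 1 and replicate 2 of each group, 1 point per mitosis gene, beside the quartiles (grey bar) and median (black line) of all genes tested. The points of monocytes on OP9 lie around a median of -1.16, while those of the other 3 groups lie around 0.

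Between the cell types on OP9-DLL1, 13 of the 48 members rose and 1 fell in cMoPs relative to monocytes, and the 13 included 4 spindle checkpoint genes and 3 genes of the chromosomal passenger complex. The test was limma-trend, a moderated linear model on log2 CPM in which all 8 libraries share 1 estimate of the spread, two-sided, with a Benjamini-Hochberg adjusted p under 0.05 over all genes tested. In this comparison 28.2% of all genes passed as higher and 29.2% as lower, so the members' share of higher calls was near the background. Their median log2 fold change was 0.50, against -0.01 over all genes. Both cMoP libraries were above both monocyte libraries for 35 members and below them for 3, and the groups overlapped for 10, while 41.1% of all genes were wholly higher and 41.7% wholly lower. Without monocytes on OP9 replicate 1 the fold changes of this comparison stay as they are and the shared estimate of spread falls, and then 31 members rose and 1 fell (32.4% and 32.3% of all genes). The count of 14 came to 32 without replicate 1 or replicate 2 of monocytes on OP9 (64.7% of all genes in either fit). It came to 4 without cMoPs on OP9-DLL1 replicate 1 (47.3% of all genes) and 6 without replicate 2 (45.0%), to 6 without either monocyte OP9-DLL1 library (44.9% without replicate 1 and 46.6% without replicate 2), and to 9 without either cMoP OP9 library (54.4% without replicate 1 and 54.3% without replicate 2). Mad2l1, Spc24, Aurkb and Cdca8 passed in the same direction under every alternative tried. The share of all genes that did so was not counted.

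On plain OP9, 23 members were called higher in cMoPs and 0 lower, where 28.8% of all genes passed as higher and 27.7% as lower, and the median was 0.70. Without monocytes on OP9 replicate 1, 18 members rose, 6 fell and the median was 0.19 (26.7% and 24.6% of all genes). The 6 were Cenpf (-1.13), Nusap1 (-0.73), Cenpe (-0.60), Anln (-0.59), Prc1 (-0.47) and Ccnb2 (-0.27). Without replicate 2 of that group, 43 rose and 1, Pttg1, fell, with a median of 1.29 (30.6% and 28.1% of all genes). Leaving out cMoPs on OP9 replicate 1 left 11 members passing (43.8% of all genes), and leaving out replicate 2 left 8 (41.4%). Each fit that leaves out a library of these groups sets a single library, assumed to vary like the other groups, against the rest. Both cMoP libraries lay above both monocyte libraries for 27 members, below them for 1, and overlapped them for 20, against 39.9% of all genes wholly higher and 38.5% wholly lower. The members passing in the same direction under every alternative tried were Cdk1, Mad2l1, Ttk, Spc24, Aurkb, Ncaph and Kif15. How many of all genes did so on OP9 was not counted either. In the authors' deposited table, 25 members were higher and 1 was lower in cMoPs on OP9-DLL1 (32.0% and 32.7% of all genes), and 25 were higher and 0 lower on OP9 (23.9% and 25.5%).

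**Figure D3:**
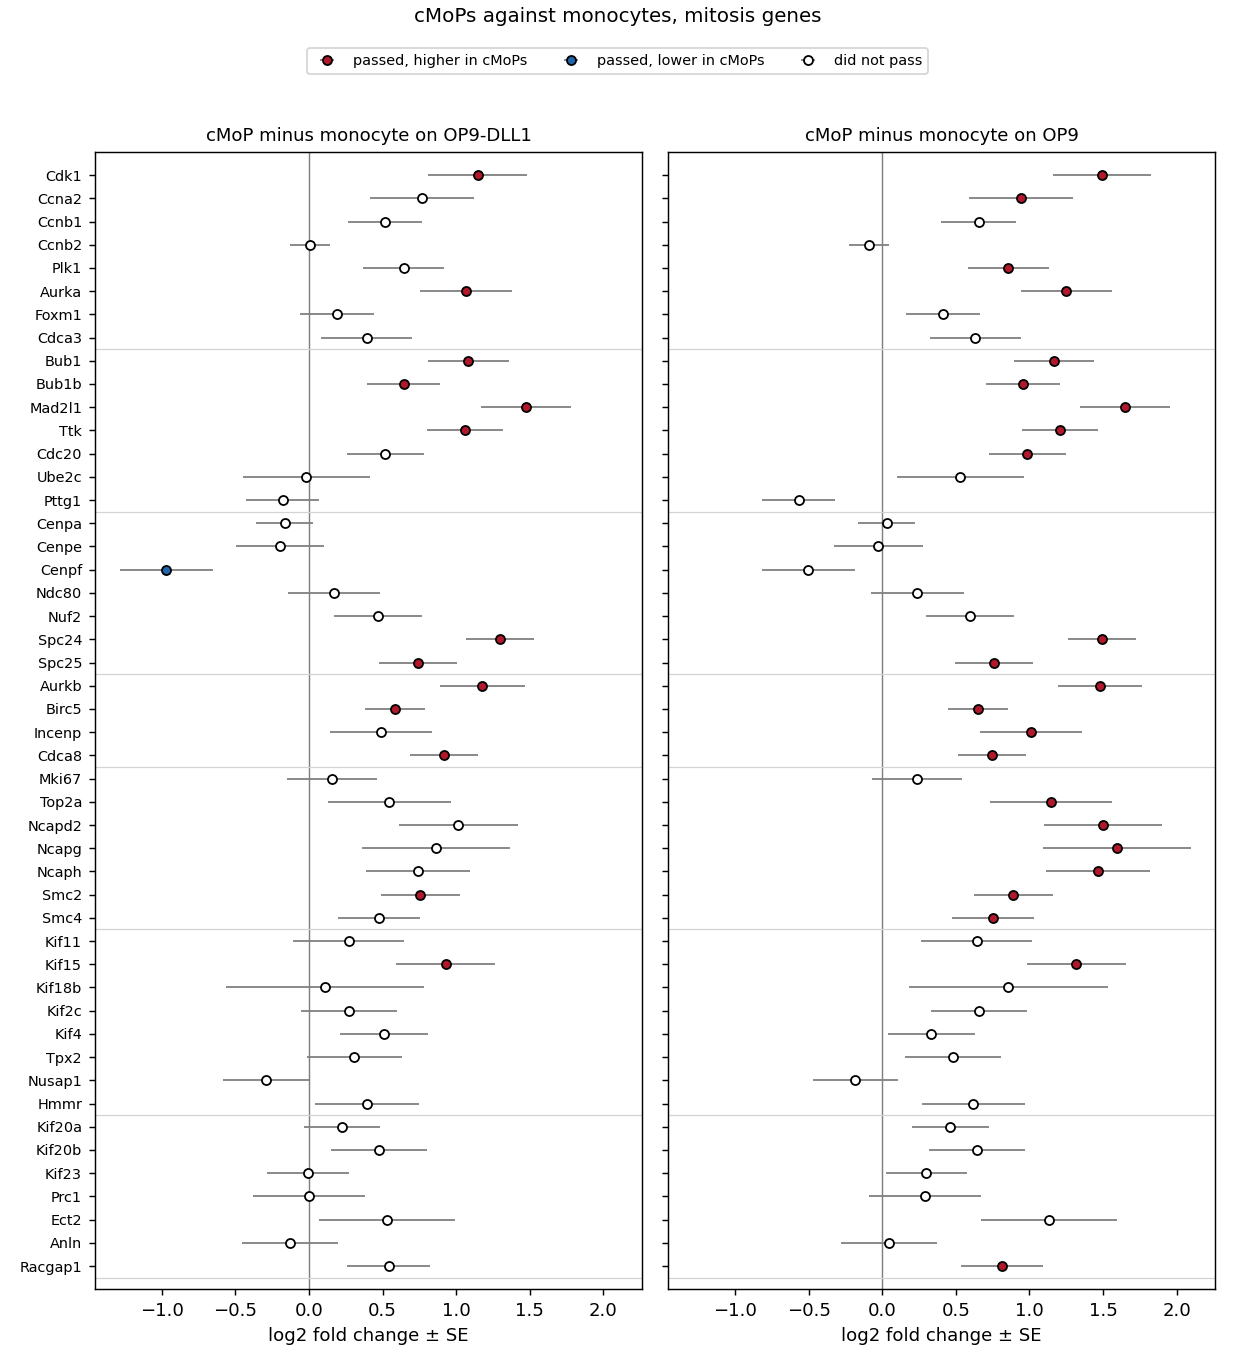
Log2 fold change of cMoPs over monocytes on OP9-DLL1 (left) and on OP9 (right) for each of the 48 genes, with bars of 1 SE and filled points for genes that passed. Mad2l1 is highest in both panels, Cenpf lowest on OP9-DLL1 and Pttg1 lowest on OP9.

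Among the 8 entry kinases, cyclins and regulators, 2 rose in cMoPs on OP9-DLL1 and 4 on OP9. For this and the following role counts, 28.2% of all genes passed as higher on OP9-DLL1 and 28.8% on OP9. Cdk1 stood at 304 and 296 CPM in cMoPs on OP9-DLL1, 295 and 322 CPM in cMoPs on OP9, 136 and 135 CPM in OP9-DLL1 monocytes, and 68.1 and 176 CPM in OP9 monocytes. All 4 cMoP libraries thus exceeded all 4 monocyte libraries, with log2 fold changes of 1.15 ± 0.34 on OP9-DLL1 (SE, adjusted p = 0.016) and 1.49 ± 0.34 on OP9 (adjusted p = 0.0045). Aurka, the centrosome kinase, also rose on both, by 1.07 ± 0.31 and 1.25 ± 0.31. Plk1, a kinase of mitotic entry and spindle poles, had 221 and 207 CPM in cMoPs on OP9-DLL1 against 134 and 140 CPM in OP9-DLL1 monocytes, and 165 and 169 CPM in cMoPs on OP9 against 63.2 and 135 CPM in OP9 monocytes. Its fold change passed on OP9 (0.86 ± 0.28, adjusted p = 0.025) and missed on OP9-DLL1 (0.64 ± 0.28, adjusted p = 0.071), though the libraries did not overlap. The 2 B-type cyclins had unlike values. Ccnb1 showed 308 and 269 CPM in cMoPs on OP9-DLL1 against 196 and 207 CPM in OP9-DLL1 monocytes (0.52 ± 0.25, adjusted p = 0.11) and 0.66 ± 0.25 on OP9 (adjusted p = 0.051). Ccnb2 showed 175 and 166 CPM in OP9-DLL1 cMoPs against 166 and 173 CPM in OP9-DLL1 monocytes, a log2 fold change of 0.01 (95% interval -0.30 to 0.31). Foxm1, the transcription factor of late cell cycle genes, had 0.19 ± 0.25 on OP9-DLL1 and 0.41 ± 0.25 on OP9 and passed on neither.

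The checkpoint and anaphase group held the member with the largest difference, with 4 of 7 genes higher in cMoPs on OP9-DLL1 and 5 on OP9. Mad2l1, the checkpoint protein that binds Cdc20, stood at 164 and 148 CPM in cMoPs on OP9-DLL1, 146 and 155 CPM in cMoPs on OP9, 58.6 and 53.5 CPM in OP9-DLL1 monocytes, and 31.6 and 72.8 CPM in OP9 monocytes. That is 2.78-fold higher on OP9-DLL1 (1.47 ± 0.30 on the log2 scale, adjusted p = 0.0027) and 3.13-fold on OP9 (1.65 ± 0.30, adjusted p = 0.0015). The checkpoint kinases Bub1 and Ttk rose by 1.08 ± 0.27 and 1.06 ± 0.26 on OP9-DLL1, and Bub1b by 0.64 ± 0.25 (adjusted p = 0.0498). Cdc20, which activates the anaphase-promoting complex, had 0.52 ± 0.26 on OP9-DLL1 (adjusted p = 0.12) and rose by 0.98 ± 0.26 on OP9. The difference between those 2 fold changes did not pass. Ube2c, the ubiquitin-conjugating enzyme that works with this complex, had 295 and 330 CPM in cMoPs on OP9-DLL1 and 297 and 335 CPM in OP9-DLL1 monocytes, a log2 fold change of -0.02 (95% interval -0.99 to 0.96). Pttg1 had 50.4 and 44.2 CPM in cMoPs on OP9-DLL1 and 57.7 and 49.4 CPM in OP9-DLL1 monocytes (-0.18 ± 0.25). On OP9, its fold change of -0.57 ± 0.25 (adjusted p = 0.076) became -0.12 without monocytes on OP9 replicate 1, the library in which Pttg1 was high.

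Kinetochore genes split. Spc24, a subunit of the NDC80 complex that grips microtubules, stood at 272 and 267 CPM in cMoPs on OP9-DLL1, 233 and 215 CPM in cMoPs on OP9, 99.0 and 121 CPM in OP9-DLL1 monocytes, and 59.3 and 106 CPM in OP9 monocytes. It rose by 1.30 ± 0.23 on OP9-DLL1 (adjusted p = 0.0012) and 1.49 ± 0.23 on OP9 (adjusted p = 0.00056), and its partner Spc25 by 0.74 ± 0.27 and 0.76 ± 0.27. The other 2 subunits of the same complex, Ndc80 and Nuf2, had 0.17 ± 0.31 and 0.47 ± 0.30 on OP9-DLL1 and did not pass. The Ndc80 libraries overlapped, but those of Nuf2 did not, at 42.2 and 44.8 CPM in OP9-DLL1 cMoPs and 28.9 and 34.1 CPM in OP9-DLL1 monocytes. Nuf2 was higher there in the authors' deposited table (adjusted p = 0.043), and Ndc80 did not pass in it. Cenpf, a large protein of the outer kinetochore made in G2, went the other way, with 58.0 and 49.1 CPM in cMoPs on OP9-DLL1, 61.1 and 57.3 CPM in cMoPs on OP9, 102 and 107 CPM in OP9-DLL1 monocytes, and 54.3 and 129 CPM in OP9 monocytes. It fell by 0.97 on the log2 scale on OP9-DLL1 (SE 0.32, adjusted p = 0.026), the only member to fall there. On OP9, where the groups overlapped through replicate 1, the value was -0.50 ± 0.32 with all libraries (adjusted p = 0.20) and -1.13 without that library (adjusted p = 0.00010, with a single OP9 monocyte library assumed to vary like the other groups). The kinetochore motor Cenpe and the centromeric histone Cenpa had -0.20 ± 0.30 and -0.17 ± 0.19 on OP9-DLL1.

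All 4 genes of the chromosomal passenger complex, which corrects faulty attachments and later acts at the midzone, were higher in cMoPs on OP9, and 3 on OP9-DLL1. Of these calls, only those of Aurkb on both stromas and of Cdca8 on OP9-DLL1 held under every alternative tried. Aurkb, its kinase, stood at 220 and 193 CPM in cMoPs on OP9-DLL1, 169 and 158 CPM in cMoPs on OP9, 86.3 and 96.0 CPM in OP9-DLL1 monocytes, and 39.9 and 86.5 CPM in OP9 monocytes. The groups were apart on both stromas, with log2 fold changes of 1.18 ± 0.29 (adjusted p = 0.0064) and 1.48 ± 0.29 (adjusted p = 0.0020). Cdca8 (borealin) rose by 0.92 ± 0.23 on OP9-DLL1 and Birc5 (survivin) by 0.58 ± 0.20, while the scaffold Incenp had 0.49 ± 0.35 (adjusted p = 0.25).

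Chromosome structure genes were where the 2 stromas gave the most unequal counts, 1 of 7 higher on OP9-DLL1 and 6 of 7 on OP9. Monocytes on OP9 replicate 1 had its widest gap in these genes, and without it the counts were 6 and 5. Smc2, the ATPase core of condensin, had 324 and 285 CPM in cMoPs on OP9-DLL1 against 174 and 186 CPM in OP9-DLL1 monocytes (0.76 ± 0.27, adjusted p = 0.037). The condensin subunit Ncapd2 had 65.8 and 63.9 CPM in OP9-DLL1 cMoPs against 26.0 and 39.6 CPM in OP9-DLL1 monocytes, a log2 fold change of 1.02 ± 0.40 just short of the threshold (adjusted p = 0.055). Top2a had 438 and 381 CPM in OP9-DLL1 cMoPs against 273 and 288 CPM in OP9-DLL1 monocytes (0.55 ± 0.42, adjusted p = 0.29), and 431 and 423 CPM in OP9 cMoPs against 106 and 351 CPM in OP9 monocytes (1.15 ± 0.42, adjusted p = 0.041, or 0.28 without replicate 1). Mki67, the gene of the proliferation marker Ki-67 that coats mitotic chromosomes, passed on neither stroma. It stood at 137 and 110 CPM in cMoPs on OP9-DLL1, 134 and 125 CPM in cMoPs on OP9, 114 and 106 CPM in OP9-DLL1 monocytes, and 72.9 and 166 CPM in OP9 monocytes. Its log2 fold change was 0.16 ± 0.31 on OP9-DLL1 (95% interval -0.53 to 0.85) and 0.23 ± 0.31 on OP9.

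Genes of spindle assembly and cytokinesis mostly did not pass. Of 8 spindle assembly genes, the kinesin Kif15 alone rose, by 0.93 ± 0.34 on OP9-DLL1 and 1.32 ± 0.34 on OP9, with 38.1 and 33.8 CPM in cMoPs on OP9-DLL1 against 19.1 and 18.6 CPM in OP9-DLL1 monocytes. Nusap1, which bundles microtubules near chromatin, had 105 and 89.3 CPM in OP9-DLL1 cMoPs against 120 and 116 CPM in OP9-DLL1 monocytes (-0.29 ± 0.29). None of the 7 genes of the central spindle and cytokinesis passed on OP9-DLL1, where the highest was Racgap1, part of the centralspindlin complex (0.54 ± 0.28, adjusted p = 0.12). The lowest was Anln, or anillin, a scaffold of the contractile ring, with 22.9 and 23.4 CPM in OP9-DLL1 cMoPs against 25.2 and 25.5 CPM in OP9-DLL1 monocytes (-0.13 ± 0.33). On OP9, Racgap1 rose by 0.82 ± 0.28, and Ect2, the exchange factor that activates RhoA, had 1.13 ± 0.46 (adjusted p = 0.062). The authors' deposited adjusted p for Ect2 on OP9 was 0.037. On OP9-DLL1 those deposited values called Kif15 (0.0011), Kif4 (0.041), Racgap1 (0.024) and Kif20b (0.0497) higher in cMoPs. The rest of both roles did not pass there, and 32.0% of all genes were higher.

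Per kilobase of exon, counted over all annotated exons of a gene, levels spanned a wide range that was similar in all groups. Expressed transcripts can be shorter than this length, so the order of the genes is approximate. Ube2c was the highest member in each, at 120 and 118 CPM per kb in cMoPs on OP9-DLL1 and OP9, and 122 and 96.9 CPM per kb in monocytes on OP9-DLL1 and OP9. Kif18b was the lowest in each, at 1.67 and 1.60 CPM per kb in cMoPs on OP9-DLL1 and OP9, and 1.50 and 1.23 CPM per kb in monocytes on OP9-DLL1 and OP9. The median member was at 15.0 and 13.6 CPM per kb in cMoPs on OP9-DLL1 and OP9, and at 10.8 and 10.2 CPM per kb in monocytes on OP9-DLL1 and OP9.

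The median differences of the DNA replication genes and of the inhibitors of proliferation were larger than that of the mitosis genes, a description with no test. The background for every list here was 28.2% of all genes higher and 29.2% lower on OP9-DLL1, and 28.8% and 27.7% on OP9. DNA replication genes were far higher in cMoPs, with 38 of 39 passing as higher and 0 as lower on either stroma and medians of 2.70 on OP9-DLL1 and 2.57 on OP9. Mcm2, a subunit of the replicative helicase, had 210 and 219 CPM in cMoPs on OP9-DLL1 against 13.9 and 16.2 CPM in OP9-DLL1 monocytes (3.83 ± 0.16, adjusted p = 3.7e-07), and Cdc6, which loads that helicase, 171 and 153 CPM in OP9-DLL1 cMoPs against 12.6 and 12.7 CPM in OP9-DLL1 monocytes (3.68 ± 0.17, adjusted p = 4.9e-07). Inhibitors of proliferation ran the other way, with 0 higher and 8 of 12 lower in cMoPs on OP9-DLL1 and 0 and 9 on OP9. Btg1, an antiproliferative gene, had 55.7 and 51.5 CPM in OP9-DLL1 cMoPs against 834 and 902 CPM in OP9-DLL1 monocytes (-4.02 ± 0.13, adjusted p = 1.2e-07), and Cdkn1b, the inhibitor p27, 7.61 and 5.71 CPM in OP9-DLL1 cMoPs against 39.9 and 44.3 CPM in OP9-DLL1 monocytes (-2.67 ± 0.22, adjusted p = 1.0e-05). The other 65 mitotic genes had 32 higher and 0 lower on OP9-DLL1 (median 0.65) and 41 and 0 on OP9 (median 0.93). They were led by the centromere genes Cenph and Cenpk and by Cdca5, the cohesin protector sororin, with 2.66 ± 0.24, 2.20 ± 0.17 and 1.81 ± 0.18 on OP9-DLL1.

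Regulators of the programme were mixed. Over all genes, 28.2% passed as higher and 29.2% as lower on OP9-DLL1, and 28.8% and 27.7% on OP9. Whether the shares of the small lists below differ from these was not tested. Of 17 DREAM and MuvB regulators, 7 were higher and 4 lower in cMoPs on OP9-DLL1, and 10 and 2 on OP9. Tfdp1, the partner of E2F factors, rose by 2.45 ± 0.14 and Mybl2, which encodes B-Myb, by 3.24 ± 0.59 on OP9-DLL1, while E2f2 fell by 1.41 (SE 0.15). Of 12 genes of CDK1 activation and exit phosphatases, 4 were higher and 3 lower on OP9-DLL1, and 3 and 2 on OP9, with the phosphatase Cdc25a up by 2.10 ± 0.22 and Ensa, an inhibitor of the exit phosphatase PP2A, down (-0.98 ± 0.12) on OP9-DLL1. Anaphase-promoting complex subunits had 5 of 16 higher and 1 lower on OP9-DLL1, and 6 and 1 on OP9, led by Anapc5 (1.12 ± 0.11). Cohesin genes had 2 of 12 higher and 3 lower on OP9-DLL1, and 3 and 4 on OP9, with Smc3, a core subunit, at 0.86 ± 0.14 and Esco1, an acetyltransferase, at -1.66 ± 0.18.

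**Figure D4:**
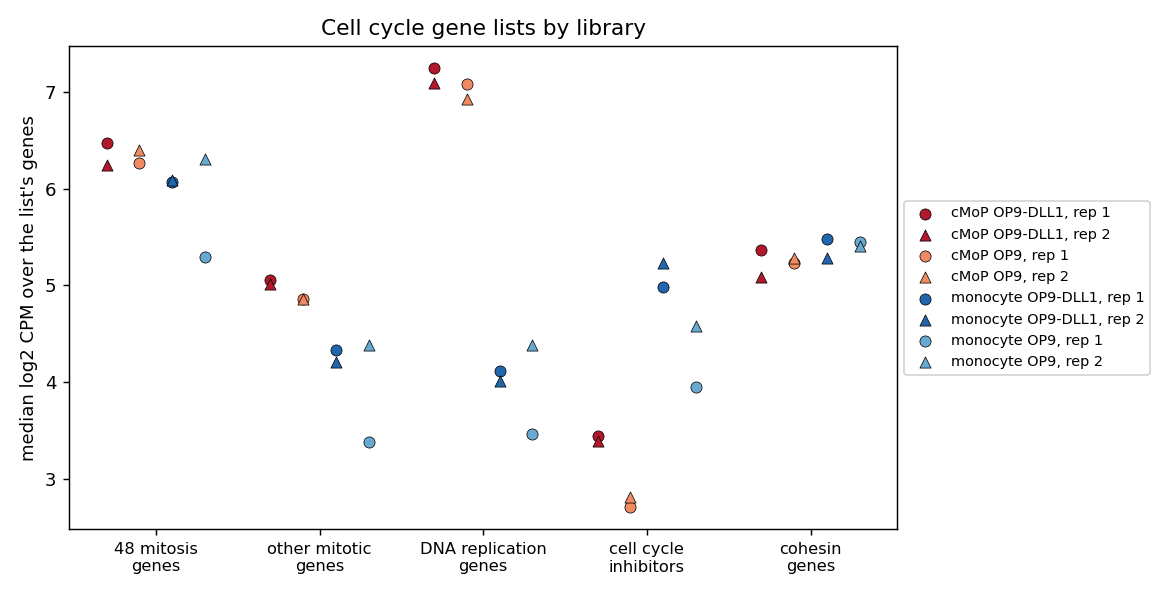
Median log2 CPM over the genes of 5 lists in each library, circles for replicate 1 and triangles for replicate 2, coloured by group. The mitosis genes lie at 6.25 to 6.47 in cMoPs and 5.29 to 6.31 in monocytes, and the DNA replication genes at 6.92 to 7.25 in cMoPs and 3.46 to 4.38 in monocytes.

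Markers of other blood cells also differed between the cell types. The 10 neutrophil markers summed to 658 to 743 CPM in cMoPs and 1742 to 2530 CPM in monocytes. Of them 1 was higher and 4 lower on OP9-DLL1 (28.2% and 29.2% of all genes). Of 10 erythroid markers listed, only 2 had values, summing to 95.9 to 110 CPM in cMoPs and 6.01 to 12.2 CPM in monocytes. Of 10 lymphocyte markers listed, only 3 had values, summing to 226 to 379 CPM in cMoPs and 13.1 to 19.6 CPM in monocytes. Most markers of these 2 lists were thus absent from the data. Progenitor markers summed to 15150 to 22700 CPM in cMoPs and 893 to 1303 CPM in monocytes, and monocyte markers to 3705 to 4414 CPM in cMoPs and 7013 to 10898 CPM in monocytes. The part of other cells in the cell-type difference of mitosis genes was not tested.

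No member passed the test for OP9-DLL1 against OP9 in cMoPs, where 0.770% of all genes did. By limma-trend, 1 of the 48 was below an unadjusted p of 0.05, against 9.47% of all genes. None was called by voom, limma's weighted model, run on reads recovered from the values (0 of 48, against 0.479% of all genes), or in the authors' deposited table (0 of 48, against 1.82%). The median of the members was 0.06, and the range ran from -0.24 (Foxm1) to 0.41 (Racgap1). Libraries on OP9-DLL1 were both above those on OP9 for 15 members, both below for 4, and overlapped for 29, against 25.0% of all genes wholly higher and 21.7% wholly lower. The gene under the unadjusted threshold was Ccnb2, at 175 and 166 CPM on OP9-DLL1 and 134 and 127 CPM on OP9. Those pairs did not overlap, and its log2 fold change was 0.38 ± 0.13 (adjusted p = 0.37, or 0.049 without monocytes on OP9 replicate 1, where 2.32% of all genes passed). For the main kinases the limma-trend intervals were -0.79 to 0.72 for Cdk1, -0.26 to 0.98 for Plk1 and -0.31 to 0.98 for Aurkb. Their width comes from a spread shared by all libraries, and for each of these genes the replicates of monocytes on OP9 were furthest apart. That spread may be technical, so the intervals do not bound a biological response. For Mki67, Top2a and Ccnb1 the fold changes were -0.08 ± 0.31, -0.06 ± 0.42 and 0.04 ± 0.25.

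In monocytes the response to OP9-DLL1 rested on which OP9 library it was set against. With all libraries 0 of the 48 members passed (6.39% of all genes did). At an unadjusted p under 0.05 limma-trend gave 2 members, both higher, against 21.8% of all genes. Voom called 0 members (7.39% of all genes), and so did the authors' deposited table (4.28%). The median was 0.31, and 45 members overlapped between the groups, with Ccnb2, Bub1b and Ncaph wholly higher on OP9-DLL1 (24.2% of all genes were wholly higher and 23.5% wholly lower). Without OP9 replicate 1, the median was -0.30, with 0 higher and 6 lower (4.67% and 3.87% of all genes). Those were Cdk1, Mki67, Smc2, Kif4, Tpx2 and Anln, with Cdk1 at -0.38 (adjusted p = 0.042) and Mki67 at -0.59 (adjusted p = 0.033). Without OP9 replicate 2, the median was 0.87, with 42 higher and 1, Pttg1, lower (9.97% and 8.75% of all genes), and Cdk1 stood at 0.99 and Mki67 at 0.59. The sign of the members' response thus differed between the 2 choices, and each of these fits leaves 1 library on OP9, assumed to vary like the other groups.

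**Figure D5:**
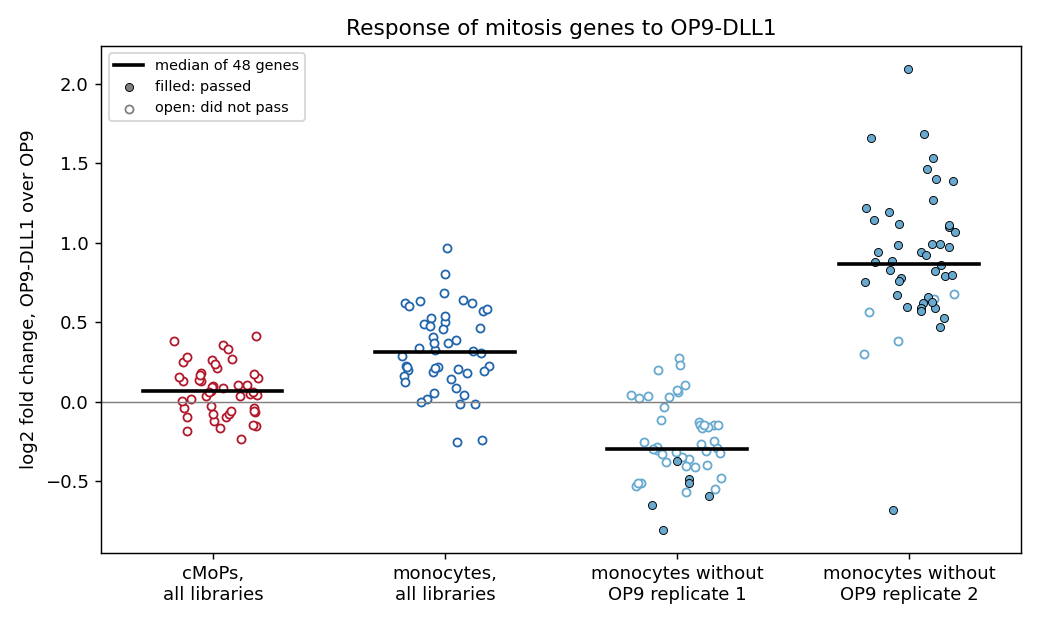
Log2 fold change of OP9-DLL1 over OP9 for the 48 genes in cMoPs, in monocytes with all libraries, and in monocytes without either OP9 library, with a line at the median and filled points for genes that passed. The medians are 0.06, 0.31, -0.30 and 0.87 from left to right.

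With all libraries, the largest values in monocytes were those of Ncaph, a condensin subunit, at 34.1 and 34.5 CPM on OP9-DLL1 and 10.9 and 28.4 CPM on OP9 (0.96 ± 0.35, adjusted p = 0.15), and of Kif18b (0.80 ± 0.68). Aurkb had 0.63 ± 0.29, Plk1 0.57 ± 0.28, Top2a 0.54 ± 0.42 and Ccnb1 0.18 ± 0.25, and Kif4 was lowest at -0.25 ± 0.30. Among the other cell cycle lists, of 12 to 65 genes each, 1 gene passed in monocytes, where 6.39% of all genes did. In cMoPs 0 passed, where 0.770% of all genes did. The gene in monocytes was E2f3, an activating E2F, which fell by 1.36 on the log2 scale (SE 0.30, adjusted p = 0.032). The stromal sum differed here too, at 5.50 and 23.1 CPM in OP9-DLL1 monocytes against 40.2 and 35.2 CPM in OP9 monocytes, and its part in the members' values was not tested.

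The difference of the OP9-DLL1 responses, cMoPs minus monocytes, passed for 0 of the 48 members (0.0523% of all genes passed), with 0 below an unadjusted p of 0.05 (9.79% of all genes) and 0 by voom (0.0449%). Its median was -0.22 with all libraries, 0.33 without monocytes on OP9 replicate 1 (0 members and 0.219% of all genes passing) and -0.80 without replicate 2 (1 higher and 29 lower, against 4.50% and 3.98% of all genes). This test is also that of the cell-type difference between the 2 stromas, so the unequal counts on OP9-DLL1 and OP9 given for each role are not shown to differ.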

How the data were processed

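RNA was measured by sequencing in 8 libraries, 2 per group, grouped by their labels. Per the submitters' processing notes, featureCounts 2.0.3 (Subread), STAR 2.7.9a, Salmon 1.5.2, bcl2fastq, limma and edgeR were used with build mm10. The sources used here do not give their settings or order. The authors deposited log2 CPM values and, for 4 comparisons, log2 fold changes and adjusted p-values. Values had the form written by voom (0.5 reads added), and whole reads were recovered for 100% of them (tolerance 0.001); these gave depth and an alternative test. Of 13430 entries, 42 repeats were dropped. Genes with at least 1 CPM in at least 2 libraries were tested (13374; 14 left out; all 48 members passed), with limma-trend (limma 3.58.1, R 4.3.3), 1 mean per group, a spread shared by all 8 libraries and Benjamini-Hochberg adjustment. The script was tested on simulated data. Members and lists were chosen with earlier results of these data known. Genes named by rule were Mki67, Top2a, Cdk1, Ccnb1, Plk1 and Aurkb, each role's highest, lowest and lowest-p member, and up to 3 lowest-p genes of other lists; the rest were chosen after their values were seen. Positions and exon lengths are from GENCODE M21 on GRCm38. Alternatives were another pseudocount, other filters, centred libraries, a replicate block, the libraries of a comparison alone, voom on reads and each library left out.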

Additional observations from a re-analysis of the deposited data

How the results depend on the processing

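Between cell types, 23 members passed on OP9 and 14 on OP9-DLL1. With only the libraries of the comparison these counts were 12 and 33, while the share of all genes passing was 49.0% and 62.2%, against 56.5% and 57.4% with all libraries. Leaving out single libraries gave 8 to 44 members on OP9 and 4 to 32 on OP9-DLL1, and for OP9-DLL1 against OP9 0 to 43 in monocytes, 0 to 1 in cMoPs and 0 to 30 for the difference of responses. Each of these fits leaves a group with a single library. The share of all genes passing moved under them too, so the swing in these counts cannot all be read as particular to the members. Other filters, log2(CPM + 1), centring and voom gave 23 to 25 (56.3% to 64.7% of all genes) and 14 to 18 (57.3% to 65.4%), and 0 for the stroma contrasts. Centring moved the median of all genes on OP9-DLL1 to 0.10, against -0.01, and that of the members to 0.61, against 0.50. Signs differed between leaving out monocytes on OP9 replicate 1 and replicate 2 for 17 of the 48 members in cMoPs over monocytes on OP9 and for 39 of the 48 for OP9-DLL1 in monocytes. Among them were Anln (-0.59 and 0.68) and Mki67 (-0.36 and 0.83) between the cell types, and, for OP9-DLL1, Cdk1 (-0.38 and 0.99), Anln (-0.65 and 0.62), Mki67 (-0.59 and 0.59), Top2a (-0.33 and 1.40) and Ccnb1 (-0.29 and 0.66). The share of all genes whose sign differed was not counted, so these counts have no background. The 2 OP9 monocyte libraries are far apart in the members, and the cause was not tested. Deviations of same-numbered libraries correlated at 0.02 to 0.09 across genes, so the numbers are not taken as pairs; with the replicate block the counts were 26 on OP9 (57.4% of all genes), 18 on OP9-DLL1 (59.0%), and 0 for each stroma contrast and the difference. Depth was least for Kif18b, with 54 reads in monocytes on OP9 replicate 1.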
